A study of Dendroctonus valens with 12 samples.

Results

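The 80 unigenes described here were higher in January than in May in larvae of the red turpentine beetle, *Dendroctonus valens*, and lower in January than in May in adults. A unigene is a gene-level cluster of transcripts assembled from the reads without a genome. The members were chosen by their own values. For each of 58956 unigenes, the ratio a set the lowest January larva, plus 1 FPKM, over the highest May larva, plus 1 FPKM. The ratio b set the lowest May adult, plus 1 FPKM, over the highest January adult, plus 1 FPKM, so b runs May over January. Unigenes were ranked by the smaller ratio and the 80 largest were taken. FPKM is the number of fragments scaled for the length of the unigene and the mapped fragments of the library, so levels can be compared between unigenes of different length. The month differences of the members are therefore a description without a test.

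The series had 4 groups of 3 libraries, each library from 1 whole field-collected insect: January larvae (labelled cold, mature larva), May larvae (labelled normal, mature larva), January adults (labelled cold, adult) and May adults (labelled normal, adult). All insects were *D. valens* without an agent or a genetic change, and the sex of the adults was not given. Each month was 1 collection, so month, temperature and anything else that differed between the collections cannot be told apart. The labels give no further origin of the insects, and the spread between libraries is the spread between these 3 insects of a group.

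As background, the members with a description hold several parts of the machinery that links an electrical signal to muscle contraction. In that machinery a voltage-gated calcium channel in the surface membrane senses the signal, the ryanodine receptor releases calcium from the internal store, and junctophilin holds both membranes close together. Other members act in nerve signalling, in the use of the insect blood sugar trehalose, and in the citric acid cycle. Bark beetle larvae feed and overwinter under bark, and adults disperse by flight after winter.

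Descriptions were taken from shortened annotation tables of the study, which covered 2652 unigenes. Of the 80 members, 31 had a row in these tables, 22 had a matched protein and 19 of those matches carried a name, a domain or an orthologue group. All 22 best matches were proteins of *Dendroctonus ponderosae*, and 0 members had a nematode as best match, which can be read only for members with a match. The study reported nematode contamination of its samples and deleted such sequences. Of the deposited unigenes, 59 had a nematode as best match in these tables. The shares and medians over all unigenes given below may therefore include sequences of another organism, which was not tested. Of the 31, 26 were in the study's list of unigenes that differed by month in both stages, which was made from these same libraries. The names of the other 49 members were not analysed here.

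Whole-library values differed between the groups. The study reported a higher GC content for every May larva than for every other library, and its part in the members' values was not tested. The number of unigenes at 1 FPKM or more was 15028 to 25771 in January larvae, 8291 to 16681 in May larvae, 24717 to 28292 in January adults and 16595 to 21622 in May adults. The 20 most abundant unigenes of each library took 27.5% to 42.6% of its FPKM sum in January larvae, 35% to 63.6% in May larvae, 14.9% to 37.2% in January adults and 33.7% to 48.7% in May adults. The deposited values give no read totals. The steps between low FPKM values put the depth of the libraries at about 0.772 to 1.18 times that of January adult 2, with every larva below every adult, but only 43.8% to 55.8% of the low unigenes used fell near a ratio of whole reads. January larva 3 and May larva 1 shared 4823 unigenes, at 1 FPKM or more in both, that were under 0.1 FPKM in the other 4 larvae; 0 of the 80 members were among them. In whole insects, a lower level can mean fewer cells of a type or less RNA per cell, and these cannot be told apart.

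Across all 58956 unigenes, 1228 (2.08%) had every January larva above every May larva and every May adult above every January adult, which the rule fixed for the members. The mirror pattern, with every May larva above every January larva and every January adult above every May adult, was found for 79 unigenes. The same direction in both stages was more frequent, with 1974 unigenes higher in January and 489 higher in May. Among the 28117 unigenes at 1 FPKM or more in at least 3 libraries, 1039 (3.70%) had the members' order. Among the members, a ranged between 1.82 and 11.6 with a median of 2.65, and b ranged between 1.82 and 14.9 with a median of 2.49. The smaller ratio was a for 37 members and b for 43.

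**Figure D1:**
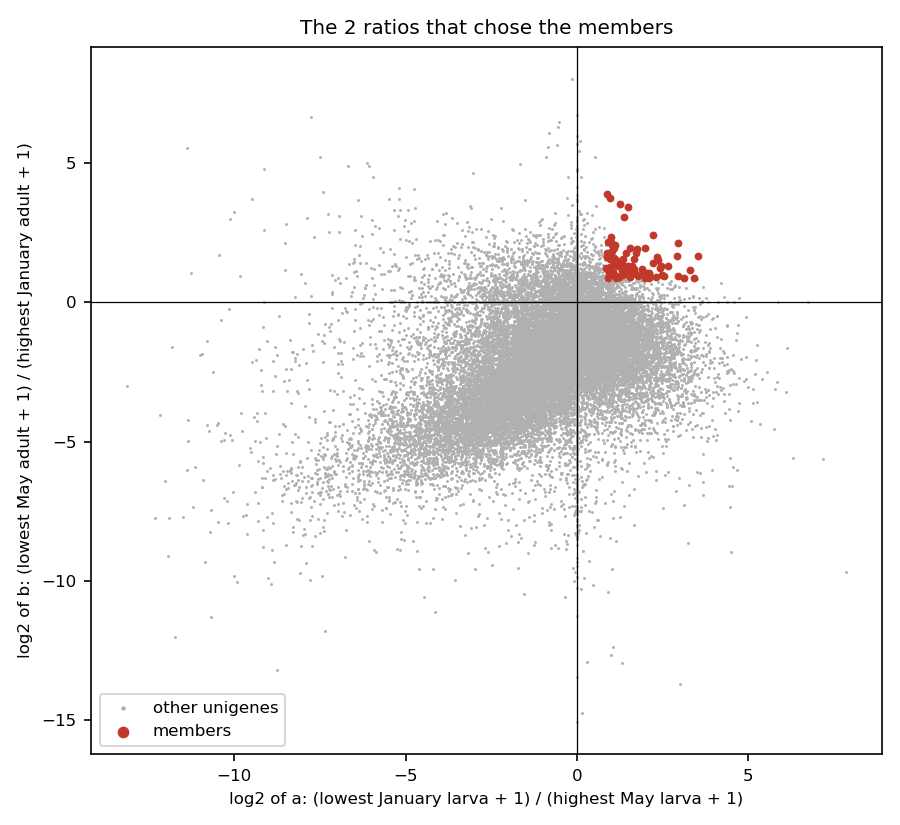
Ratio a (x axis, log2) against ratio b (y axis, log2) for the unigenes at 1 FPKM or more in at least 3 libraries, with the 80 members in red. The members fill the upper right corner, which the rule fixed, and 1039 of the 28117 unigenes shown have both ratios above 1.

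The rule set the order of the months within each stage but not the order of the 4 groups. In 79 of 80 members the May adults had the highest mean and the May larvae the lowest. In 49 members the January larvae stood between the May adults and the January adults, and in 30 members the January adults stood above the January larvae. The exception was TRINITY_DN14598_c0_g1, with 1.57, 2.41 and 7.99 FPKM in January larvae, all May larvae and all January adults listed at 0, and 1.99, 3.79 and 2.14 FPKM in May adults. The median over members of the group mean was 6.68 FPKM in January larvae, 0.415 FPKM in May larvae, 5.99 FPKM in January adults and 32.6 FPKM in May adults. In larvae the median difference of January minus May was 2.32 on the log2(FPKM + 1) scale, which understates the change of low unigenes. In adults it was -2.14.

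The low point of the pattern was the May larvae. In 48 members all 3 May larvae were under 1 FPKM, and in 10 members all 3 were listed at 0, for which no fold is given. Low May larvae were general: of the 28117 unigenes at 1 FPKM or more in at least 3 libraries, 37.1% had all 3 May larvae under 1 FPKM and 18.4% had all 3 at 0, beside 60% and 12.5% of the members. All January larvae reached 1 FPKM in 79 members, and all May adults did so in 80. The spread within groups, as the median coefficient of variation over the members, was 33.1% in January larvae, 57.5% in May larvae (over the 70 members above 0), 42.6% in January adults (over 79) and 25.7% in May adults.

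**Figure D2:**
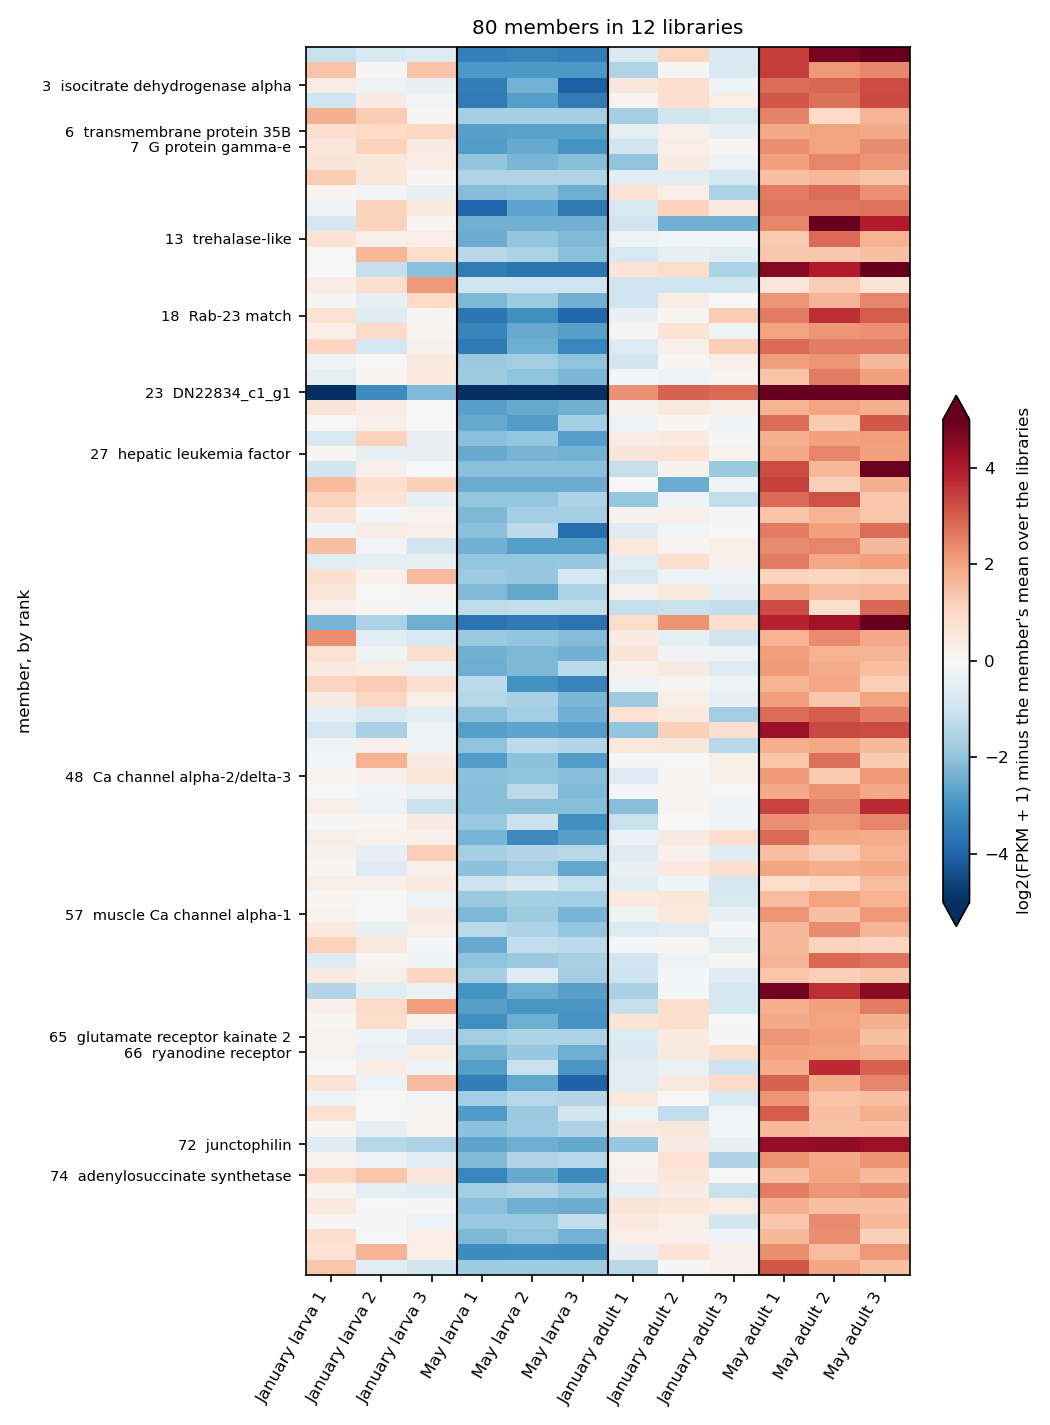
Each row is a member, by rank, and each column a library; the colour is log2(FPKM + 1) minus the member's mean over the 12 libraries. The 3 May larvae are blue and the 3 May adults red in nearly every row, with January larvae and January adults between them.

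The calcium-handling members had this pattern at moderate levels. The ryanodine receptor (TRINITY_DN27713_c9_g1), the calcium release channel of the internal store, had 6, 3.99 and 7.11 FPKM in January larvae, against 0.23, 0.69 and 0.14 FPKM in May larvae. In adults it had 2.79, 7.5 and 10.51 FPKM in January, against 24.97, 24.52 and 20.89 FPKM in May. January larvae and January adults lay in the same range. The January minus May difference was 2.3 ± 0.33 in larvae and -1.76 ± 0.55 in adults (log2, limma SE, n = 3 per group). The limma SE draws on the spread of all unigenes fitted. The rule chose the members on these same month values, so the difference and its SE are a description.

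The muscle calcium channel subunit alpha-1 (TRINITY_DN26185_c0_g1), the pore and voltage sensor in the surface membrane, was at similar levels. It had 5.16, 4.48 and 6.26 FPKM in January larvae, against 0.15, 0.58 and 0.09 FPKM in May larvae, and 3.69, 6.81 and 3.25 FPKM in January adults, against 23.89, 14.29 and 23.61 FPKM in May adults. The calcium channel subunit alpha-2/delta-3 (TRINITY_DN23276_c0_g1), an accessory subunit of such channels, had 4.01, 4.59 and 6.05 FPKM in January larvae, against 0.14, 0.16 and 0.07 FPKM in May larvae. In adults the alpha-2/delta-3 subunit had 1.98, 3.86 and 4.74 FPKM in January, against 19.51, 10.53 and 19.89 FPKM in May. For all 3 channel unigenes the January larvae overlapped the January adults, and all 3 May larvae were under 1 FPKM.

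Junctophilin (TRINITY_DN24271_c0_g5, named by its orthologue group alone) had the highest b of all members. It had 3.31, 1.46 and 1.22 FPKM in January larvae, against 0.07, 0.20 and 0.11 FPKM in May larvae. In adults it had 0.75, 7.63 and 4.08 FPKM in January, against 138.62, 139.72 and 127.32 FPKM in May, a ratio of means of 0.0307 for January over May. The larval gap was narrow beside this, with a at 1.85 near the lower limit of the members and b at 14.9. Myotrophin (TRINITY_DN23153_c1_g3), known in vertebrates as a small protein that binds actin capping protein, had 22.19, 20.98 and 12.58 FPKM in January larvae, against 2.11, 2.52 and 5.56 FPKM in May larvae. In adults myotrophin had 19.31, 22.19 and 9.66 FPKM in January, against 72.36, 59.97 and 48.16 FPKM in May. Its larval groups overlapped after median-of-ratios scaling of the libraries, where a was 0.869.

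Members of nerve and membrane signalling were led by the guanine nucleotide-binding protein subunit gamma-e (TRINITY_DN23556_c0_g1, rank 7), which in Drosophila belongs to the G protein of the photoreceptors. It had 18.79, 28.42 and 16.65 FPKM in January larvae, against 0.92, 1.34 and 0.71 FPKM in May larvae, and 5.92, 15.80 and 13.25 FPKM in January adults, against 64.97, 52.22 and 67.92 FPKM in May adults. Here the January larvae lay above all January adults. The kainate 2-like glutamate receptor (TRINITY_DN25194_c0_g1), a ligand-gated ion channel, was low throughout the larvae, with 2.79, 1.90 and 1.15 FPKM in January and 0, 0.10 and 0.12 FPKM in May. In adults the receptor had 1.08, 3.66 and 2.15 FPKM in January, against 14.48, 13.03 and 8.54 FPKM in May.

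Peptidylglycine alpha-hydroxylating monooxygenase (TRINITY_DN23672_c0_g1), which carries out a step in the amidation of neuropeptides, differed less. It had 24.35, 15.48 and 9.74 FPKM in January larvae, against 1, 3.86 and 3.59 FPKM in May larvae, and 9.95, 11.26 and 7.38 FPKM in January adults, against 34.50, 24.07 and 22.93 FPKM in May adults. Transmembrane protein 35B (TRINITY_DN21631_c1_g1, rank 6) had the highest a of all members. Its levels were 10.93, 12.33 and 12.52 FPKM in January larvae, against 0.02, 0.03 and 0.03 FPKM in May larvae, and 3.90, 6.61 and 4.18 FPKM in January adults, against 23.80, 25.41 and 23.49 FPKM in May adults. The 3 insects of each group were close together for this unigene, and no groups overlapped.

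Intracellular regulators were also among the members. A unigene matched to the small GTPase Rab-23 (TRINITY_DN24882_c0_g1), a regulator of Hedgehog signalling in mouse, had 27.30, 10.20 and 17.06 FPKM in January larvae, against 0.39, 1.02 and 0.10 FPKM in May larvae. In adults it had 12.16, 17.16 and 39.25 FPKM in January, against 99.66, 216.64 and 136.91 FPKM in May. The hepatic leukemia factor unigene (TRINITY_DN25024_c0_g1), a basic leucine zipper transcription factor, had 7.82, 5.38 and 5.24 FPKM in January larvae, against 0.43, 0.66 and 0.60 FPKM in May larvae. In adults the factor had 11.77, 12.46 and 8.34 FPKM in January, against 29.74, 44.23 and 32.92 FPKM in May, and every adult exceeded every larva. Mitogen-activated protein kinase kinase kinase kinase 5 (TRINITY_DN25982_c0_g2), a kinase at the head of a signalling cascade, had 4.5 to 8.02 FPKM in January larvae, against 0.21 to 0.83 FPKM in May larvae, and 4.55 to 5.90 FPKM in January adults, against 14.13 to 17.71 FPKM in May adults.

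**Figure D3:**
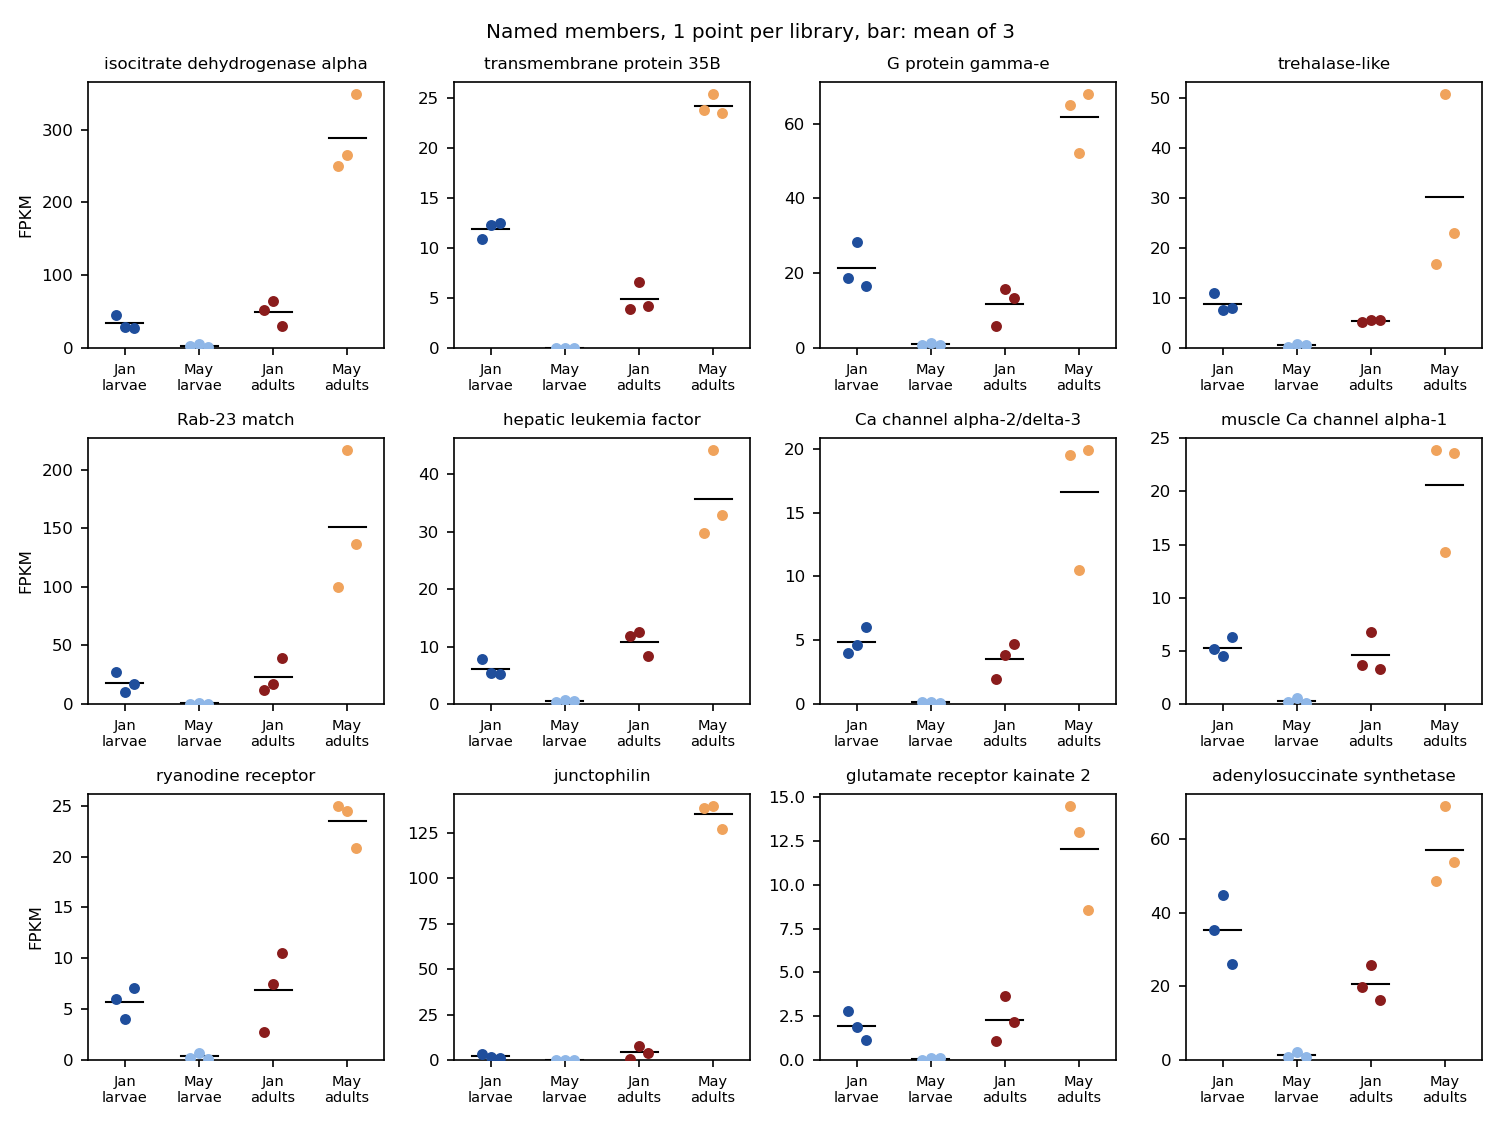
FPKM of 12 named members in each library, by group, with the mean of 3 as a bar and a separate y axis from 0 for each panel. In every panel the May larvae sit at the bottom and the May adults at the top, and the adult groups of junctophilin lie far apart, at 0.75 to 7.63 FPKM in January and 127.32 to 139.72 FPKM in May.

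The metabolic members were led by the mitochondrial isocitrate dehydrogenase [NAD] subunit alpha (TRINITY_DN21233_c1_g1, rank 3), an enzyme of the citric acid cycle. It had 45.70, 28.87 and 26.96 FPKM in January larvae, against 2.31, 5.99 and 1.13 FPKM in May larvae, and 52.69, 64.04 and 30.19 FPKM in January adults, against 249.79, 264.75 and 348.59 FPKM in May adults. The January minus May difference, on which the rule chose, was 3.21 ± 0.53 in larvae and -2.58 ± 0.48 in adults (log2, limma SE, n = 3 per group). Trehalase-like (TRINITY_DN23361_c0_g1, rank 13), which splits trehalose into glucose, had 11.04, 7.58 and 8 FPKM in January larvae, against 0.30, 0.85 and 0.55 FPKM in May larvae. In adults trehalase-like had 5.13, 5.58 and 5.55 FPKM in January, against 16.78, 50.77 and 22.90 FPKM in May, with the May adults spread widely.

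Adenylosuccinate synthetase (TRINITY_DN23265_c0_g1), an enzyme of AMP synthesis, had a strong larval and a weaker adult difference. It had 35.27, 44.71 and 25.99 FPKM in January larvae, against 0.82, 2.08 and 0.95 FPKM in May larvae, and 19.93, 25.92 and 16.33 FPKM in January adults, against 48.53, 68.92 and 53.74 FPKM in May adults. Every January larva exceeded every January adult. Mitochondrial glutaminase (TRINITY_DN22124_c0_g2), which forms glutamate out of glutamine, was low throughout, with 1.84, 1.83 and 2.28 FPKM in January larvae, against 0.14, 0.43 and 0.04 FPKM in May larvae. In adults glutaminase had 0.64, 1.04 and 0.31 FPKM in January, against 3.34, 3.80 and 5.90 FPKM in May.

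The remaining named members act in protein folding and transport. A unigene matched to protein disulfide-isomerase A5 (TRINITY_DN24568_c0_g1), a folding enzyme of the endoplasmic reticulum in mammals, had 11.42 to 30.82 FPKM in January larvae, against 0.10 to 0.15 FPKM in May larvae, and 6.54 to 14.73 FPKM in January adults, against 27.63 to 47.55 FPKM in May adults. The gamma-interferon-inducible lysosomal thiol reductase-like unigene (TRINITY_DN23675_c0_g2), which reduces disulfide bonds in lysosomes in mammals, had 6.97 to 10.03 FPKM in January larvae, against 0.39 to 0.83 FPKM in May larvae, and 9.12 to 11.19 FPKM in January adults, against 21.37 to 25.80 FPKM in May adults. Sorting nexin-17 (TRINITY_DN20720_c0_g1), which recycles membrane proteins through endosomes, had 2.89 to 4.01 FPKM in January larvae, against 0.34 to 0.52 FPKM in May larvae, and 1.75 to 6.09 FPKM in January adults, against 12.98 to 18.22 FPKM in May adults. Both disulfide enzymes had larval gaps wider than their adult gaps.

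The most abundant members carried no usable description. TRINITY_DN23862_c3_g1 had 5649, 6499 and 8068 FPKM in January larvae, against 1666, 2838 and 718.2 FPKM in May larvae, and 2776, 5977 and 5333 FPKM in January adults, against 29436, 27155 and 32672 FPKM in May adults. TRINITY_DN20384_c1_g1 had 3983, 5825 and 5287 FPKM in January larvae, against 1057, 1825 and 329.4 FPKM in May larvae, and 2946, 4092 and 4407 FPKM in January adults, against 26915, 18373 and 31183 FPKM in May adults. After median-of-ratios scaling the larval groups of both overlapped, with a at 0.717 for TRINITY_DN23862_c3_g1 and 0.786 for TRINITY_DN20384_c1_g1.

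TRINITY_DN22834_c1_g1 was an adult transcript above all. It had 1.42, 10.58 and 21.44 FPKM in January larvae and was listed at 0 in all May larvae. In adults it had 495.2, 790.2 and 726.2 FPKM in January, against 24097, 9115 and 34971 FPKM in May, the highest single value of any member. TRINITY_DN27621_c1_g2 had 229.9 to 845.2 FPKM in January larvae, against 15.96 to 45.79 FPKM in May larvae, and 195.5 to 541.9 FPKM in January adults, against 1024 to 2191 FPKM in May adults. TRINITY_DN24900_c0_g1, matched to a hypothetical protein, had 52.10 to 198.82 FPKM in January larvae, against 7.25 to 16.51 FPKM in May larvae, and 58.72 to 221.62 FPKM in January adults, against 552.67 to 683.54 FPKM in May adults.

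Summed over members, the share of a library's FPKM was 1.02%, 1.27% and 1.35% in January larvae, against 0.232%, 0.454% and 0.0645% in May larvae. In adults it was 0.728%, 1.28% and 1.11% in January, against 10.6%, 7.81% and 13.5% in May. TRINITY_DN23862_c3_g1, TRINITY_DN20384_c1_g1 and TRINITY_DN22834_c1_g1 made up most of it. Without these 3 the share was 0.132% to 0.163% in January larvae, against 0.00592% to 0.0165% in May larvae, and 0.0973% to 0.165% in January adults, against 0.869% to 0.977% in May adults. With and without them, all May adults lay above and all May larvae below the 6 January insects.

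Among the 10 highest ranks, 5 had no row in the annotation tables, and TRINITY_DN21456_c1_g1 and TRINITY_DN25075_c0_g1 had a row without a match. Rank 1, TRINITY_DN26465_c1_g1, had 3.97, 5.34 and 5.91 FPKM in January larvae, against 0.02, 0.06 and 0 FPKM in May larvae, and 5.51, 20.99 and 5.55 FPKM in January adults, against 116.26, 290.06 and 338.55 FPKM in May adults. TRINITY_DN21456_c1_g1, rank 2, had 18.78, 6.78 and 18.67 FPKM in January larvae with all May larvae listed at 0, and 1.58, 6.62 and 3.31 FPKM in January adults, against 79.31, 32.51 and 38.27 FPKM in May adults. Rank 4, TRINITY_DN27022_c0_g2, had 7.63 to 21.85 FPKM in January larvae, against 0.52 to 1.53 FPKM in May larvae, and 18.48 to 29.91 FPKM in January adults, against 115.55 to 167.24 FPKM in May adults.

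TRINITY_DN19852_c0_g1 (rank 5) and TRINITY_DN23745_c0_g6 (rank 9) were near absent outside January larvae and May adults. TRINITY_DN19852_c0_g1 had 9.81, 6.59 and 2.32 FPKM in January larvae, 0 in all May larvae, 0, 0.66 and 0.82 FPKM in January adults and 16.52, 5.30 and 9.24 FPKM in May adults. TRINITY_DN23745_c0_g6 had 5.97, 3.24 and 1.96 FPKM in January larvae, 0 in all May larvae, 0.91, 0.98 and 0.61 FPKM in January adults and 7.16, 7.95 and 6.71 FPKM in May adults. TRINITY_DN25075_c0_g1 (rank 8) had 5.27 to 6.64 FPKM in January larvae, against 0 to 0.24 FPKM in May larvae, and 0.20 to 5.38 FPKM in January adults, against 18.80 to 25.23 FPKM in May adults. TRINITY_DN27131_c1_g1 (rank 10) had 3.82 to 5.80 FPKM in January larvae, against 0.15 to 0.50 FPKM in May larvae, and 1.11 to 9.51 FPKM in January adults, against 29.68 to 42.93 FPKM in May adults.

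The other 9 members with a row carried no name. TRINITY_DN20141_c0_g1 had the highest a of these 9, at 7.81. TRINITY_DN21149_c0_g2 had the highest b of them, with 1.56, 3.26 and 1.34 FPKM in January larvae, 0, 0.11 and 0 FPKM in May larvae, 23.35, 60.16 and 22.11 FPKM in January adults and 182.91, 238.12 and 478.55 FPKM in May adults. The 7 others, TRINITY_DN21839_c0_g1, TRINITY_DN24688_c4_g2, TRINITY_DN21985_c1_g4, TRINITY_DN20175_c0_g1, TRINITY_DN20358_c1_g1, TRINITY_DN17031_c0_g1 and TRINITY_DN22589_c1_g3, had means of 2.92 to 56.8 FPKM in January larvae, 0 to 4.48 FPKM in May larvae, 1.68 to 31.5 FPKM in January adults and 18.9 to 121 FPKM in May adults.

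At the limit of the rule, the smaller ratio was 1.82 just inside and just outside. TRINITY_DN25310_c1_g1, rank 80, had 8.02, 1.38 and 0.82 FPKM in January larvae with 0 in all May larvae, and 0.33, 2.33 and 3.12 FPKM in January adults, against 28.79, 12.46 and 8.72 FPKM in May adults. TRINITY_DN26026_c1_g7, rank 81 and not a member, had 1.94, 6.83 and 1.76 FPKM in January larvae, 0 in all May larvae and all January adults, and 0.82, 1.55 and 2.64 FPKM in May adults. In May adults rank 81 was of low level, while rank 80 reached 28.79 FPKM, inside the ranges of ranks 79 and 82. TRINITY_DN24568_c0_g1, rank 79, had 27.63 to 47.55 FPKM in May adults. TRINITY_DN22821_c0_g1, rank 82 and not a member, had 26.21 to 46.99 FPKM there.

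For the fits across all unigenes, limma compared log2(FPKM + 1) values, and a unigene was called at an adjusted p under 0.01 with a change of at least 2-fold. In larvae 32.0% of 11635 tested unigenes were higher in January and 3.63% lower, and the median difference over all of them was 1.26. In adults 28.3% of 23423 tested unigenes were higher in January and 4.30% lower, with a median of 1.02. Of the 80 members, 66 were called higher in January in larvae (79 tested) and 45 lower in January in adults (80 tested), counts that the rule set and from which nothing is read. The members' adult median of -2.14 lay on the other side of 0 from the median of all unigenes, and their larval median of 2.33, over those tested, on the same side. Median-of-ratios scaling, which sets the libraries level at the typical unigene, moved the larval median of all unigenes to 0.24 and that of the 71 members still tested to 1.77. The larval calls over all unigenes were then 1551 higher and 1215 lower, beside 3727 higher and 422 lower without it.

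The mean difference between stages, both larval groups minus both adult groups, was computed from the same 12 values that the rule ranked. With January larvae and January adults at similar levels, the month differences that the rule chose give a negative value by arithmetic, so it is a description of the members and not a test. Of 80 members, 55 passed the limma thresholds as lower in larvae and 0 as higher. Over all 28117 unigenes fitted, 3.96% passed as lower and 1.62% as higher, and nothing is read from the members' count beside these. The median over members was -1.92 on the log2(FPKM + 1) scale, beside -0.77 over all unigenes tested, and 79 of 80 members had a negative value. Under median-of-ratios scaling 43 members were lower and 0 higher with a median of -1.60, while over all unigenes 1042 were higher and 687 lower, beside 455 higher and 1113 lower without it. The rule also favoured unigenes with little spread within groups. Among the 959 other tested unigenes with the members' order of groups, 223 (23.3%) were lower in larvae and 3 were higher.

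The number of members past the thresholds depended on the library left out, and so did the number of calls over all unigenes. Leaving out January larva 2 gave 33, and leaving out any of the 3 May larvae gave 35. Dropping January adult 2 gave 30. Dropping May adults gave 30 for May adult 1, 31 for May adult 2 and 22 for May adult 3. With any of the other libraries left out the count was 43 to 59. Over all unigenes the calls in either direction were 1568, beside 646 without January larva 2 and 403 without May adult 3. The members' median stayed at -1.84 to -2.02 with a library left out. The same 21 members passed under each of 20 alternative settings, and the stage difference of 79 members stayed negative in all of them.

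The 5 members with the largest stage difference among those past the thresholds were TRINITY_DN22834_c1_g1, TRINITY_DN21149_c0_g2, TRINITY_DN21149_c0_g3, TRINITY_DN26465_c1_g1 and junctophilin (TRINITY_DN24271_c0_g5). For TRINITY_DN22834_c1_g1 the stage difference was -10.27 ± 0.51 (log2, limma SE). For TRINITY_DN21149_c0_g2 it was -5.76 ± 0.36, and for junctophilin it was -3.74 ± 0.40. All adults exceeded all larvae for TRINITY_DN22834_c1_g1, for TRINITY_DN21149_c0_g2 and for the hepatic leukemia factor unigene, 3 of 80 members, beside 1.29% of all unigenes at 1 FPKM or more in at least 3 libraries.

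Of the named members, isocitrate dehydrogenase had a stage difference of -3.39 ± 0.34 and the Rab-23 match -3.44 ± 0.38. The ryanodine receptor had -2.16 ± 0.35, the muscle calcium channel alpha-1 -1.93 ± 0.32 and the alpha-2/delta-3 subunit -1.75 ± 0.33. The ryanodine receptor and alpha-1 passed the thresholds in 14 of 21 settings each and alpha-2/delta-3 in 10. Glutaminase had -0.64 ± 0.30 and peptidylglycine alpha-hydroxylating monooxygenase -1.15 ± 0.34. Neither passed the thresholds. The only positive value among members was 0.13 ± 0.34 for TRINITY_DN14598_c0_g1, which lay between -0.13 and 0.32 over the settings.

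**Figure D4:**
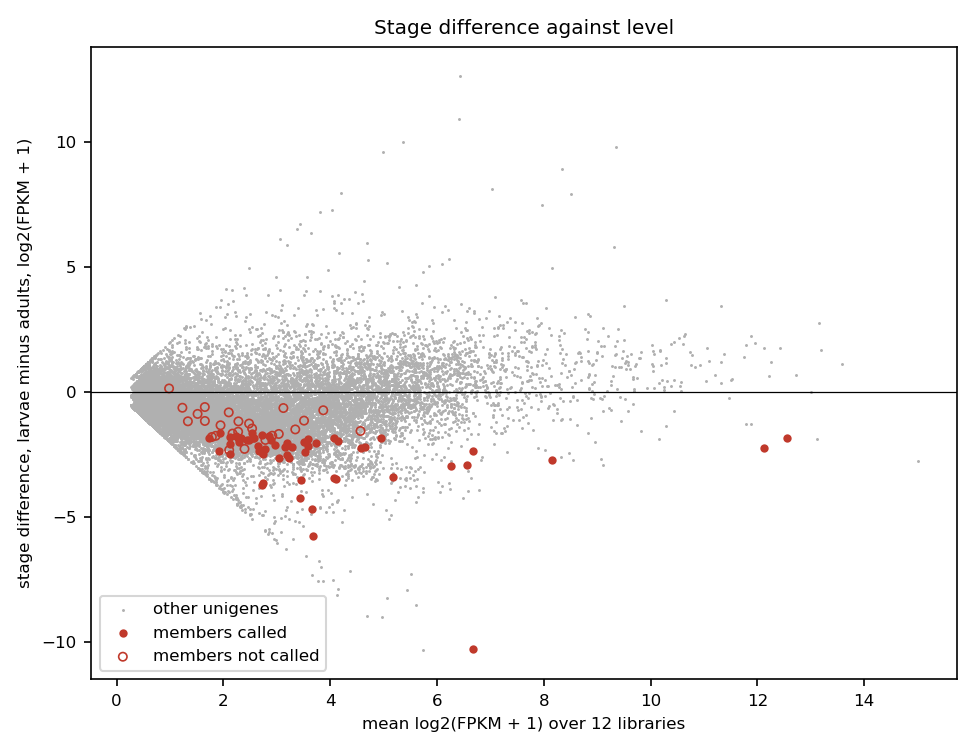
Stage difference, larvae minus adults on the log2(FPKM + 1) scale (y axis), against the mean log2(FPKM + 1) over 12 libraries (x axis), for all tested unigenes in grey and members in red, filled where past the limma thresholds. All but 1 member lie below 0, and TRINITY_DN22834_c1_g1 lies lowest at -10.27.

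The stage difference was not the same in both months, which the rule in part fixed. In January the ratio of group means plus 1, larvae over adults, had a median over members of 0.19 on the log2 scale, and in May of -4.24. January larvae were all above January adults in 19 members, all below in 3, and overlapped in 58. Over unigenes at 1 FPKM or more in at least 3 libraries, 5.78% had all January larvae above and 9.14% all below January adults. January larvae lay entirely below May adults in 69 members, beside 13.8% of those unigenes. May larvae lay entirely below January adults in 66 members, beside 48.7%.

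To see how far the pattern held in an insect that had no part in the choice, each library was left out, the rule was run on the other 11, and the left-out insect was set against the opposite month of its stage. The insects of that other month did take part in the choice, so the rule fixed part of the share. The shares are a description and not a test. The left-out library was on the side that the rule asks for in 69 to 80 of the 80 unigenes chosen. For January larvae the share was 100%, 90.0% and 93.8%, and for May larvae 97.5%, 95.0% and 98.8%. For January adults it was 96.3%, 86.3% and 88.8%, and for May adults 98.8%, 88.8% and 96.3%. Over all unigenes at 1 FPKM or more in at least 3 libraries the same share was 32.8% to 65.8% with a larva left out and 15.8% to 24.6% with an adult left out. The lowest share of the chosen unigenes came with January adult 2 left out, which was the highest of its group in 52 of 80 members.

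**Figure D5:**
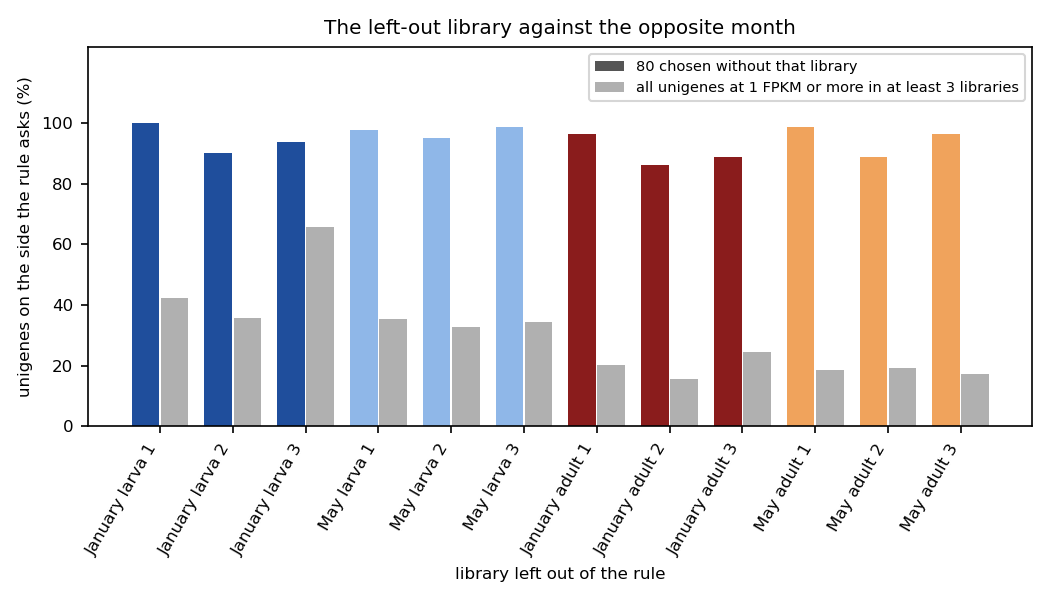
Percentage of unigenes for which a left-out library lay on the side of the opposite month that the rule asks for, for the 80 unigenes chosen without it (coloured by group) and for all unigenes at 1 FPKM or more in at least 3 libraries (grey). The coloured bars reach 86.3% to 100% and the grey bars 15.8% to 65.8%.

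Membership itself moved more than the order of the groups. Between 47 and 71 members stayed among the 80 with a library left out, and 41 stayed in all 12 of these rankings. The 47 came without May adult 2, beside 49 without January adult 2 and 50 without January larva 2. All 80 members kept both orders after scaling to equal FPKM sums, with or without the 20 most abundant unigenes, and 69 kept them after median-of-ratios scaling. Its divisors were 0.395 to 0.591 in May larvae, against 1.07 to 1.64 in January larvae. In the other 11 members, with myotrophin and the 2 most abundant members among them, the larval months overlapped under that scaling.

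Other unigenes were counted from lists made by matching words in descriptions. A list can therefore hold genes of another function, and a unigene can be on several lists. Over both annotation tables, glutaminase was on the cytoskeleton list, and muscle actin was on the muscle contraction and the cytoskeleton lists. For these counts the study's annotation table that was not chosen by month was used, in its first 1999 rows. Of its 8 muscle contraction unigenes, 2 were members, the ryanodine receptor and the calcium channel alpha-1. Without these members, which the rule chose, 6 were left. In larvae 2 of 3 tested were higher in January and 0 lower, with a median of 2.12 beside 1.26 over all unigenes. In adults 0 of 5 tested were higher and 2 lower, with a median of -0.72 beside 1.02. In the stage difference 2 of 5 tested were lower in larvae and 0 higher, with a median of -0.69 beside -0.77.

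The most abundant contractile proteins of both annotation tables, none of them members, had other patterns. Muscle actin (TRINITY_DN22247_c2_g1) was at 0.31 FPKM or less in all larvae, and had 210.05, 165.22 and 19.98 FPKM in January adults, against 3081, 3407 and 4796 FPKM in May adults (log2 difference -5.35, limma adjusted p = 0.00205). Myosin heavy chain (TRINITY_DN25111_c1_g1), out of the list that the study chose by month, was lower in January in both stages, by -3.62 in larvae (limma adjusted p = 0.00369) and -5.96 in adults (limma adjusted p = 0.00187). Troponin I (TRINITY_DN26658_c1_g1) was higher in January in larvae by 3.10 (limma adjusted p = 0.00182), and its adult difference of 0.51 did not pass (limma adjusted p = 0.477). Actin and myosin genes occur in near-identical copies, and reads could be split among them. The 13 muscle contraction unigenes of both annotation tables summed to 1012 to 2228 FPKM in January larvae and 331.4 to 955.2 FPKM in May larvae. In adults the sum was 675.2 to 1687 FPKM in January and 5269 to 7003 FPKM in May. Single genes made up most of it, with troponin I at 896.8 to 2083 FPKM in January larvae and muscle actin at 3081 to 4796 FPKM in May adults. The sum therefore does not describe muscle genes in general, and its part in the members' pattern was not tested.

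Ion channels and transmitter receptors numbered 33, of which 2 were members, again the ryanodine receptor and the calcium channel alpha-1. Of the other 31, in larvae 2 of 10 tested were higher in January and 2 lower, with a median of 1.24, and in adults 0 of 12 were higher and 2 lower, with a median of 0.52. Among 37 kinases, phosphatases and GTPases other than the 1 member of that list, 9 of 26 tested were higher in January in larvae and 0 lower, and in adults 0 of 29 passed in either direction. Among 32 unigenes of central energy metabolism, with 0 members, 4 of 14 were higher in January and 2 lower in larvae, and 1 of 14 was higher and 4 lower in adults. Among 60 transcription factors, with 0 members, 14 of 29 were higher in January and 0 lower in larvae, and 3 of 38 were higher and 0 lower in adults. The remaining lists of that table held 0 members. Among 21 cytoskeleton unigenes 2 of 10 tested were higher in January in larvae and 0 lower, and 1 of 12 was higher and 2 lower in adults. Among 11 cell surface unigenes it was 2 of 7 higher and 0 lower in larvae, and 0 of 8 in either direction in adults. Among 8 RNA-binding proteins 1 of 6 was higher and 0 lower in larvae, and 1 of 8 higher and 1 lower in adults. Among 10 amino acid and glutathione enzymes 0 of 5 passed in either stage. Among 39 transposable element proteins 6 of 9 were higher and 1 lower in larvae, and 2 of 12 higher and 2 lower in adults. Of 11 heat shock proteins, 2 had a nematode as best match. Among the other 9, 1 of 5 was higher and 2 lower in larvae, and 1 of 5 higher and 0 lower in adults.

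A list of 15 cuticle, sense organ and gonad unigenes, of which 0 were members, mixed genes of larvae and adults, so its sum does not check the stage. Single genes of it differed in this respect. Larval cuticle protein LCP-17 (TRINITY_DN12641_c0_g1) had 39.89, 87.2 and 46.75 FPKM in January larvae and 198.57, 127.59 and 544.89 FPKM in May larvae, against 1.3, 2.12 and 1.89 FPKM in January adults and 7.17, 7.9 and 14.46 FPKM in May adults. Every larva exceeded every adult for it. The vitellogenin receptor (TRINITY_DN25457_c0_g1), which takes up yolk protein into eggs, had 92.25, 82.8 and 0.26 FPKM in January adults and 0.14, 37.79 and 12.41 FPKM in May adults. It differed among the adults of each month, and its part in the members' values was not tested.

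The assembly also grouped unigenes into clusters of related sequence, and the 80 members came out of 79 clusters. TRINITY_DN21149_c0_g2 and TRINITY_DN21149_c0_g3 shared a cluster, so they may share reads and are not independent. The clusters held 72 further unigenes at 1 FPKM or more in at least 3 libraries. Of these 10 (13.9%) had the members' order of groups, beside 3.70% of all such unigenes. They include TRINITY_DN24271_c0_g2 in the junctophilin cluster, with 0.45 to 0.88 FPKM in January larvae, against 0.13 to 0.21 FPKM in May larvae, and 0.41 to 2.54 FPKM in January adults, against 13.24 to 36.58 FPKM in May adults. The M-line protein unc-89-like unigene TRINITY_DN27091_c0_g2, a clustermate of the member TRINITY_DN27091_c0_g5, had the adult order alone. It had 0.22 to 0.72 FPKM in January larvae, against 0.20 to 1.55 FPKM in May larvae, and its larval groups overlapped. In adults it had 0.22 to 1.74 FPKM in January, against 18.12 to 25.04 FPKM in May. Clustermates may share reads, so the shared order is a description.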

How the data were processed

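RNA of 12 single whole insects was sequenced, 1 library each. Per the labels and the study's methods, the authors assembled the reads into unigenes without a genome, mapped them with Bowtie2 2.3.5.1 and estimated levels with RSEM 1.2.31, and deposited FPKM values per unigene and library. FPKM are not counts, so no count model was used. Samples were grouped by their labels into month and stage, and the months are those named in the protocol.

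The rule was applied to the deposited FPKM of all 58956 unigenes. limma 3.58.1 (R 4.3.3), with a trend in the variance, was fitted to log2(FPKM + 1) of unigenes at 1 FPKM or more in at least 3 libraries of the comparison, with Benjamini-Hochberg adjustment over all of them. A call needed an adjusted p under 0.01 and a change of 2-fold. The fit of the stage difference, and not the month fits, was run on simulated data with independent noise for each unigene. Those data hold no differences between libraries in depth or composition, so the run does not check the calls given here. Tables were made with Python 3.11.15 and pandas 2.3.3.

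Named members were the 10 highest ranks, those with a row in the annotation tables, the 5 most abundant, the 5 with the largest stage difference among those called and ranks 80 and 81. Of a gene list, up to 3 examples with the highest mean FPKM were named. TRINITY_DN14598_c0_g1 and the clustermates were named after their values were seen. The members and the gene lists were chosen with earlier results of these data known. The annotation tables were shortened, so no overlap was tested. Alternatives changed the added value, the filter, the scaling, the trend, the replicate block and the libraries used. Sequences of the members were not used here. The p-values measure the spread between these insects.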

Additional observations from a re-analysis of the deposited data

Results flagged for a closer look

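With no overlap between months in either stage, 1228 unigenes had January larvae above May larvae and January adults below May adults. The January and May insects were different individuals, so these are differences between groups and not changes within an insect. Whether the month difference itself differed between the stages was not tested, since the rule ranks unigenes by the months in both stages. The 80 members are the upper end of these 1228.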

How the results depend on the processing

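Of 42 named members, 34 passed the thresholds in the stage difference, 14 of them under every alternative, and the stage difference of 0 of the 42 changed sign. The 42 include 5 named for the largest stage differences among those called, so nothing is read from this count. Of all 80 members 55 passed as lower in larvae, beside 3.96% of all unigenes fitted. Outside the 42, the stage difference of TRINITY_DN14598_c0_g1 (0.13) ranged between -0.13 and 0.32. Over all unigenes, median-of-ratios scaling turned the stage split to 1042 higher and 687 lower, beside 455 and 1113. Among the 80 members, 28 stayed with 0.1 FPKM added, 45 with 5 FPKM, 30 by group means, 45 under median-of-ratios scaling, 46 with equal sums without the 20 most abundant unigenes, and 47 to 71 with a library left out.

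Over all unigenes, 4149 were called between months in larvae, 374 with no filter and 52 to 2424 with a library left out. In adults 7632 were called, 4607 with a pseudocount of 0.1, 1829 with no filter and 111 to 5844 with a library left out. In the stage difference 1568 were called, 733 with no filter, 2518 with equal sums, 2563 with equal sums without the 20 most abundant unigenes, and 403 to 3933 with a library left out. Leaving out both January larva 3 and May larva 1, chosen after seeing the data, gave 411 in larvae and 10230 in the stage difference. The members lower in larvae numbered 55, and 22 to 59 with a library left out. The causes were not tested.

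With the replicate block the calls were 0 in larvae by limma (6419 at an unadjusted p under 0.05), 569 in the stage difference and 34 for the members. Deviations from the group means of same-numbered insects correlated between months at -0.64, 0.37 and -0.57 in larvae and at -0.32, 0.12 and -0.03 in adults. Between stages of the same month they correlated at -0.26 to 0.42. Insects of unlike number also correlated, at 0.705 for January larva 3 and May larva 1. These values therefore cannot decide whether the numbers mark a shared batch. Depth limits low values: 48 members had all May larvae under 1 FPKM.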
